A study of Mus musculus with 24 samples.

Results

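The proteasome genes of mouse CD8+ T cells were followed over the first day of activation in cells with and without a conditional Tcf7 deletion. Members were all genes whose symbol consists of Psm, a letter from a to g, and a number. This rule found 48 of the 23420 genes in the files. By role they comprised 7 alpha and 7 constitutive beta subunits of the 20S core, 3 immunoproteasome catalytic subunits (Psmb8, Psmb9 and Psmb10), 2 tissue-restricted core subunits (Psma8 and Psmb11), 6 ATPases and 11 non-ATPase subunits of the 19S cap, 3 assembly chaperones of the cap, 4 activators, 1 inhibitor and 4 assembly chaperones of the core. The immunoproteasome subunits were described apart from the other 45. Of the 48 members, 47 passed the filter on low counts and were tested. Psma8, a core subunit restricted to the testis, was listed between 0 and 0.67 TPM, a length-normalised share of the library's transcripts, in every library and was not tested.

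The cells came from 3 Tcf7 cKO mice (E8i-cre+, Tcf7 FL/FL, OTI+; mice 1 to 3) and 3 WT mice (E8i-cre-, Tcf7 FL/FL, OTI+; mice 4 to 6). All 6 mice thus carried the OT-I T cell receptor transgene and the floxed Tcf7 allele, and E8i-cre is driven by a Cd8a enhancer that is active in CD8 lineage cells. The presence of the Cre and the loss of Tcf7 cannot be told apart in this design. CD8+ T cells were bead-purified from spleen and lymph nodes and sampled at 0 h, then at 4, 8 and 24 h on plates coated with 1 ug/mL of anti-CD3/anti-CD28 with 6 ng/mL of murine IL2. Each library was made with Smart-seq2 from 1000 sorted cells, giving 8 groups of 3 libraries, 24 in all, with each mouse present at every time. Ages are not stated.

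The 26S proteasome degrades proteins tagged with ubiquitin. Its barrel-shaped core holds outer rings of alpha subunits, which gate the entrance, and inner rings of beta subunits, of which Psmb5, Psmb6 and Psmb7 carry the chymotrypsin-like, caspase-like and trypsin-like active sites. The cap recognises, unfolds and feeds in the substrates. In lymphocytes, and in other cells after interferon gamma, Psmb8, Psmb9 and Psmb10 take the places of Psmb5, Psmb6 and Psmb7 in newly built cores, which alters the peptides available to MHC class I.

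The libraries held between 5846265 and 9700397 expected counts and between 13694 and 17214 genes with a count. The ribosomal precursor Rn45s took 7.39% to 20.6% of the counts. Both measures followed time. Rn45s took 7.39% to 9.54% at 24 h, against 16.2% to 18.9% at 0 h and 18.4% to 20.6% at 4 h. Genes with a count numbered 13694 to 14081 at 24 h, against 16210 to 17214 at 0 h. Tcf7 itself was higher in the libraries labelled cKO at 0 h (685, 681 and 719 TPM, against 567, 552 and 499 TPM in those labelled WT) and lower at 24 h (37.5, 35.7 and 38.3 TPM, against 62.6, 77.0 and 68.8 TPM). A gene-level count includes exons outside a floxed segment, so these values do not check the deletion, and cKO and WT below are the labels. The CD8 T cell markers were all present, with sums of 1422 to 1591 TPM in cKO mice and 1356 to 1409 TPM in WT mice at 24 h, against 6957 to 7363 TPM and 6348 to 6769 TPM at 0 h. Of the 24 markers of other cell types in the files, 18 stayed at or below 1.42 TPM in every library, among them the myeloid gene S100a8, at 0 in all 24 libraries, and the B cell factors Pax5 and Ebf1, at 0 in 21 and 20. The other 6 were Cst3, at 76.95 to 175.9 TPM in every library, and Pecam1, Cd79b, Hba-a1, Eomes and Xcr1, which reached 76.7, 52.4, 21.4, 9.27 and 6.01 TPM. The myeloid and dendritic list summed to 163 to 177 TPM in cKO mice and 154 to 167 TPM in WT mice at 24 h, against 154 to 168 TPM and 147 to 157 TPM at 0 h, almost all of it Cst3. The B cell list summed to 14.4 to 16.1 TPM in cKO mice and 15.8 to 18.3 TPM in WT mice at 24 h, against 41.5 to 52.7 TPM and 32.6 to 36.6 TPM at 0 h, and the stromal and erythroid list to 3.02 to 4.12 TPM and 2.65 to 4.04 TPM, against 60.1 to 73.6 TPM and 57.8 to 77.3 TPM. The NK list reached at most 10.4 TPM and the CD4 T cell list 1.96 TPM. Their part in the changes over time was not tested. Because TPM and scaled counts are shares of a library, more proteasome RNA per cell and less of other RNA cannot be told apart.

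Most proteasome genes were higher at 24 h than at 0 h, in both genotypes. In cKO cells 39 of the 47 tested members were higher, 4 were lower and 4 were not called at an adjusted p of 0.05. In WT cells 40 were higher, 5 lower and 2 not called. At this comparison 37.3% of all tested genes were higher and 39% lower in cKO (76.3% in either direction), and 36.9% were higher and 40.1% lower in WT (77% in either direction). The median log2 fold change was 1.23 over the members and -0.07 over all tested genes in cKO, and 1.27 and -0.08 in WT. The libraries at 24 h and at 0 h did not overlap for 44 members in cKO and for 46 in WT, against 79.2% and 80.9% of all tested genes. The genotypes had 38 higher and 4 lower members in common and none with opposite calls. The members that were lower at 24 h in both were Psmb8, Psmb10, Psmb11 and Psme1, to which WT added Psmb9.

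Among the 31 subunits of the constitutive core and the cap, every one was higher at 24 h than at 0 h in both genotypes, of which Psmb1 alone lost a call under an alternative (in WT, without mouse 6). Their summed level was 14754 ± 249.6 TPM in cKO mice and 14783 ± 100.5 TPM in WT mice at 24 h, against 6662 ± 319 TPM in cKO mice and 6340 ± 47.6 TPM in WT mice at 0 h (SD, n = 3 each). At the intermediate times the sum was 9068 ± 314 TPM in cKO mice and 9257 ± 347 TPM in WT mice at 4 h, and 13209 ± 804 TPM in cKO mice and 13852 ± 533 TPM in WT mice at 8 h. Most of the difference was therefore in place by 8 h. Over the same day the sum of the 3 immunoproteasome subunits was 1597 ± 231, 871 ± 69.5, 626 ± 107 and 1004 ± 78.0 TPM in cKO at 0, 4, 8 and 24 h, and 1502 ± 26.2, 823 ± 45.7, 516 ± 19.5 and 928 ± 47.3 TPM in WT mice. The 2 sums thus moved in opposite directions up to 8 h and in the same direction afterwards.

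**Figure D1:**
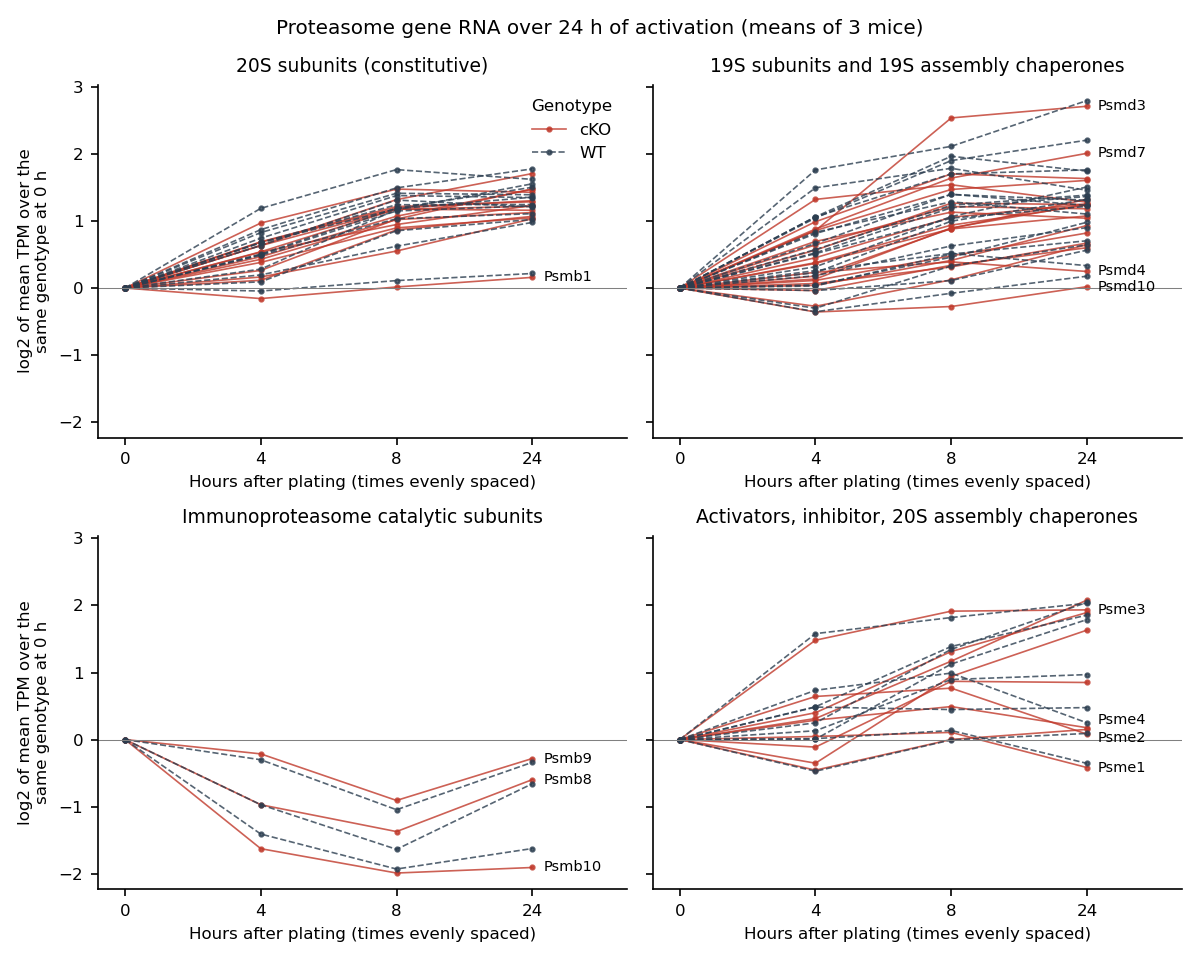
Mean TPM of the members other than Psma8 and Psmb11 at 4, 8 and 24 h relative to the same genotype at 0 h, on a log2 scale, with 1 line per gene and genotype and panels by role (n = 3 mice per point). Most core and cap subunits climb until 8 h and change less afterwards, Psmb1 and Psmd10 stay near 0, and Psmb8, Psmb9 and Psmb10 run below 0 at every later time.

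Step by step, 30 members were higher and 4 lower at 4 h than at 0 h in cKO, where 29.6% and 27.6% of all tested genes were (57.2% in either direction). In WT 31 were higher and 4 lower, where 30% and 29.1% of all tested genes were (59% in either direction). From 4 h to 8 h, 37 members were higher and 2 lower in cKO (background 20.8% and 19.6%, together 40.4%), and 39 were higher and 3 lower in WT (background 21.9% and 19.7%, together 41.6%). The step from 8 h to 24 h was mixed. It had 18 higher and 5 lower members in cKO (background 25.2% and 32.1%, together 57.3%) and 11 higher and 9 lower in WT (background 24.7% and 34.1%, together 58.7%). The WT split of that last step depended on the scaling, with 16 higher and 7 lower members under DESeq2's size factors and 18 and 6 without Rn45s. Leaving out mouse 1 changed the cKO counts of this step to 11 higher and 4 lower, and leaving out mouse 6 changed the WT counts to 7 and 5.

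The 7 alpha subunits rose together. All were higher at 4 h, at 8 h than at 4 h, and at 24 h than at 0 h, with log2 fold changes at 24 h over 0 h of 1.12 to 1.55 in cKO and 1.15 to 1.66 in WT. Psma5, the zeta subunit of the ring, had the largest change of them at 4 h. It had 450, 452 and 436 TPM in cKO mice and 462, 466 and 407 TPM in WT mice at 4 h, against 222, 247 and 215 TPM in cKO mice and 190, 205 and 190 TPM in WT mice at 0 h. The libraries of the 2 times did not overlap, and the log2 fold change was 1.05 (SE 0.0907, adjusted p = 2.15e-12) in cKO and 1.27 (SE 0.0917, adjusted p = 1.48e-14) in WT. From 8 h to 24 h Psma5 was lower in WT with a value of -0.25 (adjusted p = 0.0159), a call lost under 10 of 17 alternatives (-0.26 to -0.11, adjusted p of 0.0595 to 0.40), among them DESeq2 and leaving out mouse 3, 5 or 6, and was not called in cKO (-0.09, adjusted p = 0.399). Psma1 and Psma4, also of the ring, went on rising over the last step, by 0.41 and 0.36 in cKO and by 0.29 and 0.21 in WT. In WT the call of Psma1 was lost without mouse 6 (0.23, adjusted p = 0.0921), and that of Psma4 without mouse 1, 4 or 6 (0.22, 0.14 and 0.22).

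Among the constitutive beta subunits, all 7 were higher at 24 h than at 0 h, by log2 fold changes of 0.23 to 1.78 in cKO and 0.25 to 1.82 in WT. Both ends of that range were held by the same genes. Psmb7, the trypsin-like subunit, was the lowest beta gene at rest and rose most, to 313, 317 and 303 TPM in cKO mice and 294, 295 and 313 TPM in WT mice at 24 h, against 96.3, 96.8 and 92.3 TPM in cKO mice and 103, 87.8 and 72.0 TPM in WT mice at 0 h. Its log2 fold change was 1.78 (SE 0.112, adjusted p = 8.58e-17) in cKO and 1.82 (SE 0.113, adjusted p = 6.84e-17) in WT. Psmb1, a beta subunit with no active site, was the highest at rest and moved least. It had 622, 631 and 612 TPM in cKO mice and 628, 624 and 631 TPM in WT mice at 24 h, against 584, 551 and 535 TPM in cKO mice and 540, 545 and 534 TPM in WT mice at 0 h. The groups did not overlap, yet the log2 fold changes were only 0.23 (SE 0.0872, adjusted p = 0.0153) in cKO and 0.25 (SE 0.0873, adjusted p = 0.00884) in WT, where the call was lost without mouse 6 (0.25, adjusted p = 0.0537).

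The other active-site genes lay between these. Psmb5, the chymotrypsin-like subunit and the site that bortezomib blocks best, had 642, 619 and 598 TPM in cKO mice and 618, 615 and 636 TPM in WT mice at 24 h, against 300, 282 and 269 TPM in cKO mice and 262, 259 and 278 TPM in WT mice at 0 h. Its log2 fold change was 1.20 (SE 0.103, adjusted p = 5.4e-13) in cKO and 1.26 (SE 0.104, adjusted p = 1.61e-13) in WT. Psmb6, the caspase-like subunit, rose by 1.29 (SE 0.0971, adjusted p = 1.32e-14) in cKO and 1.28 (SE 0.0973, adjusted p = 1.77e-14) in WT. Neither gene was called from 8 h to 24 h (log2 fold changes of 0.07 in cKO and -0.02 in WT for Psmb5, and of 0.01 and -0.10 for Psmb6).

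The levels of the core subunits drew closer together, those of the cap ATPases little. At 24 h the highest of the 7 constitutive beta genes stood at 2.69 times the lowest in cKO and 2.82 times in WT, against 5.85 and 6.16 times at 0 h, in mean TPM. Over the 31 core and cap subunits the span was 5.09-fold in cKO and 5.07-fold in WT at 24 h (Psmd1 to Psma7), against 15.4-fold and 15.3-fold at 0 h (Psmd3 to Psmb1). The 0 h span rests on Psmd3 alone, at 36.1 TPM in cKO and 35.3 TPM in WT, with Psmd1 next at 66.5 and 61.3 TPM. The SD of log2 mean TPM over the 31 genes was 0.670 in cKO and 0.655 in WT at 24 h, against 0.874 and 0.881 at 0 h. The span of the alpha subunits was 2.05-fold in cKO and 2.04-fold in WT at 24 h, against 2.60-fold and 2.50-fold at 0 h, and that of the 6 ATPases 1.83-fold in cKO and 1.88-fold in WT, against 2.03-fold and 1.92-fold. Across the 31 genes the log2 fold change at 24 h was lower for genes with a higher resting TPM, with a Spearman rho of -0.52 in cKO and -0.59 in WT. Resting level and change share the 0 h libraries, and with the resting level taken from the other genotype rho was -0.54 and -0.56. Genes are not independent replicates, and the values are a description.

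**Figure D2:**
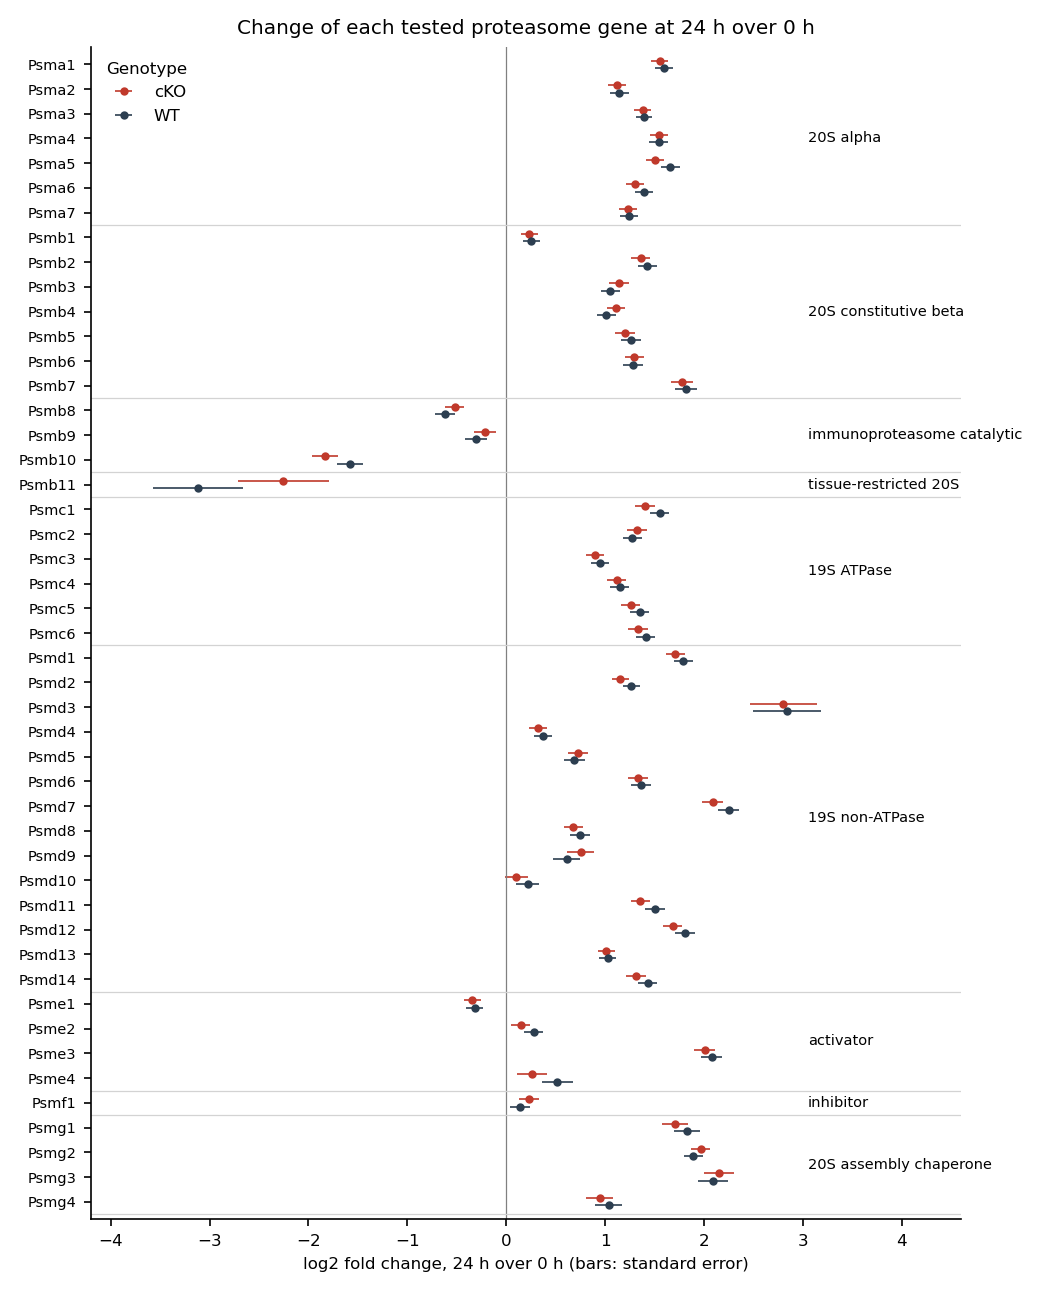
Log2 fold change at 24 h over 0 h of each of the 47 tested members, by role, with bars of 1 SE (edgeR, 3 mice a group), for cKO and WT. All core and cap subunits lie above 0, Psmd3 is highest at 2.80 in cKO and 2.84 in WT, and the immunoproteasome subunits lie below 0.

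The immunoproteasome subunits took another course. Psmb8 and Psmb9 lie on either side of Tap1 within the MHC region, at chr17:34197721-34201454 and chr17:34181987-34187764 of GRCm38, and Psmb10 at chr8:105935735-105938444. Psmb8, the chymotrypsin-like subunit that replaces Psmb5, was one of the most abundant members at rest, with 1027, 1208 and 924 TPM in cKO mice and 1010, 984 and 995 TPM in WT mice at 0 h. It had 585, 553 and 472 TPM in cKO mice and 473, 509 and 541 TPM in WT mice at 4 h, and 476, 348 and 396 TPM in cKO mice and 336, 304 and 321 TPM in WT mice at 8 h. At 24 h it was back to 767, 661 and 659 TPM in cKO mice and 631, 658 and 603 TPM in WT mice. The 24 h libraries lay above all 8 h libraries of the same genotype and below all 0 h libraries.

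In edgeR's quasi-likelihood test Psmb8 changed by -0.90 on the log2 scale (SE 0.102, adjusted p = 2.02e-09) in cKO and -0.89 (SE 0.102, adjusted p = 2.33e-09) in WT at 4 h over 0 h. At 8 h over 4 h the value was -0.37 (adjusted p = 0.00396) in cKO and -0.61 (adjusted p = 8.26e-06) in WT. The cKO libraries of those 2 times overlapped, and without mouse 2 the value was -0.25 with an adjusted p of 0.111. From 8 h to 24 h Psmb8 rose by 0.74 (adjusted p = 1.51e-07) in cKO and 0.88 (adjusted p = 4.25e-09) in WT. Over the whole day the log2 fold change was -0.52 (SE 0.101, adjusted p = 1.88e-05) in cKO and -0.62 (SE 0.101, adjusted p = 1.25e-06) in WT.

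Psmb9, the counterpart of Psmb6, dipped at 8 h. In the cKO mice it had 289, 345 and 251 TPM at 0 h, 259, 255 and 248 TPM at 4 h, then 184, 131 and 156 TPM at 8 h. At 24 h these mice had 254, 240 and 233 TPM. In the WT mice it had 297, 287 and 277 TPM, 218, 239 and 241 TPM, 131, 137 and 149 TPM, and 219, 244 and 218 TPM at the same times. The 8 h libraries lay below all others of their genotype. At 4 h over 0 h Psmb9 was not called (-0.15, adjusted p = 0.24 in cKO and -0.23, adjusted p = 0.0695 in WT). In WT it was called lower under 6 of 17 alternatives, DESeq2 and leaving out Rn45s among them (-0.30 to -0.24, adjusted p of 0.0136 to 0.0494). The step from 4 h to 8 h was -0.66 (SE 0.113, adjusted p = 1.18e-05) in cKO and -0.68 (SE 0.113, adjusted p = 6.54e-06) in WT, and that from 8 h to 24 h was 0.60 (adjusted p = 2.44e-05) in cKO and 0.61 (adjusted p = 1.82e-05) in WT. At 24 h over 0 h the log2 fold change was -0.21 (adjusted p = 0.073, not called) in cKO and -0.31 (adjusted p = 0.0114) in WT. Psmb9 lost the WT call without mouse 3, 4 or 6, where the values were -0.20, -0.24 and -0.29, with DESeq2 (-0.24, adjusted p = 0.052) and with no filter on low counts (-0.15, adjusted p = 0.246). The cKO value was called with limma on log2(TPM + 1) (-0.27, adjusted p = 0.0199) and in a fit of only the groups compared (-0.26, adjusted p = 0.0352). It lies head to head with Tap1, and their exons on opposite strands share 212 bases, whose reads cannot be assigned to a strand with this library type.

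Psmb10, the counterpart of Psmb7, fell furthest and stayed below its level at 0 h. It had 229, 296 and 221 TPM in cKO mice and 226, 215 and 216 TPM in WT mice at 0 h, and 94.1, 67.6 and 79.8 TPM in cKO mice and 85.7, 75.0 and 86.5 TPM in WT mice at 4 h. At 8 h it had 79.8, 50.4 and 57.5 TPM in cKO mice and 58.8, 53.1 and 60.2 TPM in WT mice. The 24 h libraries held 73.3, 59.8 and 65.6 TPM in cKO mice and 68.7, 78.2 and 65.9 TPM in WT mice. All 18 libraries after 0 h lay below all 6 at 0 h. The log2 fold change was -1.56 (SE 0.133, adjusted p = 7.25e-12) in cKO and -1.32 (SE 0.133, adjusted p = 2.93e-10) in WT at 4 h over 0 h. At 24 h over 0 h it was -1.83 (SE 0.133, adjusted p = 3.91e-14) in cKO and -1.58 (SE 0.132, adjusted p = 1.35e-12) in WT. The step from 4 h to 8 h was -0.32 (adjusted p = 0.0621) in cKO and -0.47 (adjusted p = 0.00652) in WT. The cKO value was called under 4 of 17 alternatives, mouse as a block among them (-0.40 to -0.33, adjusted p of 0.0151 to 0.0487). The WT call was lost without mouse 4 (-0.36, adjusted p = 0.136). The step from 8 h to 24 h, in which Psmb8 and Psmb9 rose, was 0.04 in cKO and 0.21 in WT for Psmb10, and neither was called (adjusted p = 0.806 and 0.192). The WT value was called with no filter on low counts (0.35, adjusted p = 0.0115) and in a fit of only the groups compared (0.29, adjusted p = 0.0295).

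Each immunoproteasome subunit was then set against the constitutive subunit it replaces, as a ratio of TPM within each library. Psmb8 stood at 3.71 ± 0.489 times Psmb5 in cKO and 3.75 ± 0.146 times in WT at 0 h (SD, n = 3 each). The ratio was 0.722 ± 0.205 in cKO and 0.544 ± 0.0537 in WT at 8 h, and 1.12 ± 0.0651 in cKO and 1.01 ± 0.0607 in WT at 24 h. Psmb8 RNA was thus in excess at rest, in deficit at 8 h and about equal to Psmb5 at 24 h. The ratio of Psmb9 to Psmb6 was 1.10 in cKO and 1.06 in WT at 0 h, 0.262 and 0.218 at 8 h, and 0.390 and 0.352 at 24 h. The ratio of Psmb10 to Psmb7 was 2.61 in cKO and 2.55 in WT at 0 h, 0.267 and 0.233 at 8 h, and 0.213 and 0.237 at 24 h. These are RNA levels, and the make-up of the assembled particles was not measured. As for Psmb9, some exon bases are shared with genes on the opposite strand, 498 of Psmb8 with Gm20496 and 405 of Psmb7 with Nek6. Psmb5 shares 109 with Mir686 on its own strand. The part of such reads in the ratios was not tested.

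The ratios were tested across the 6 mice, each compared with itself, on log2 of TPM plus 1. At 24 h minus 0 h the log2 ratio differed by -1.80 ± 0.186 for Psmb8 to Psmb5, by -1.53 ± 0.171 for Psmb9 to Psmb6 and by -3.49 ± 0.332 for Psmb10 to Psmb7 (mean ± SD of 6 mice). At 8 h minus 0 h the values were -2.59 ± 0.429, -2.18 ± 0.333 and -3.36 ± 0.417, and at 4 h minus 0 h they were -1.43 ± 0.213, -0.90 ± 0.208 and -2.26 ± 0.293. Each of the 9 differences was negative in 6 of 6 mice. The exact two-sided sign-flip test gave p = 0.03125 for each, which is the smallest that 6 mice allow, and 0.03125 after adjustment over the 9 tests. Between genotypes, the ratio averaged over the times differed by 0.14 for Psmb8 to Psmb5, 0.16 for Psmb9 to Psmb6 and 0.03 for Psmb10 to Psmb7, cKO minus WT on the log2 scale. Exact permutation of the mice gave p = 0.1, 0.1 and 0.8 (adjusted 0.15, 0.15 and 0.8), where 0.1 is the smallest that 3 against 3 mice allow.

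**Figure D3:**
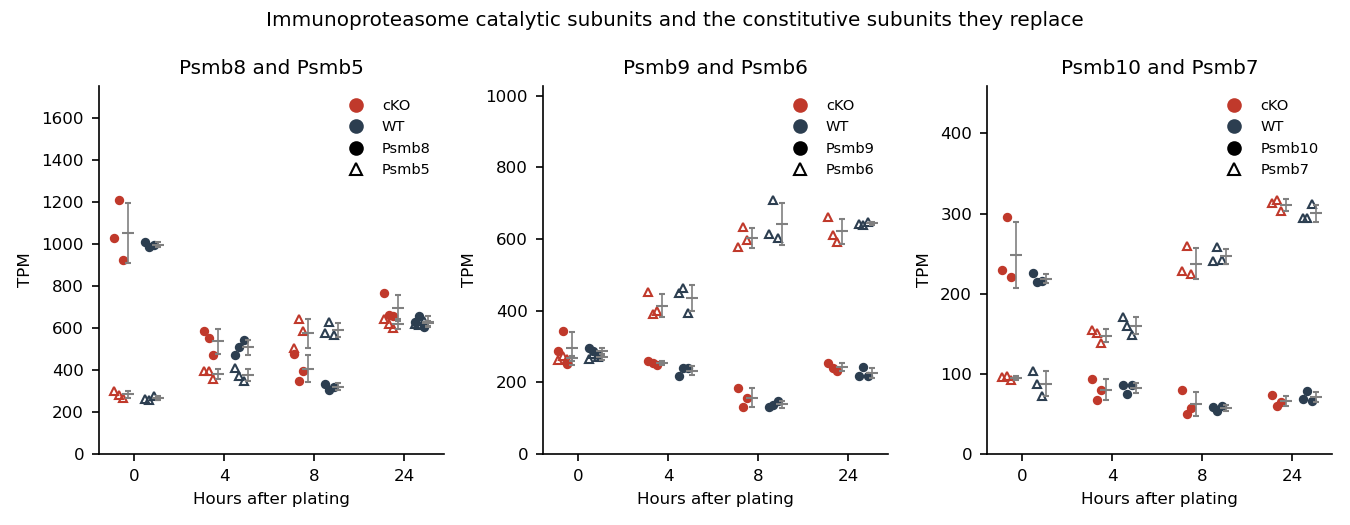
TPM in every library of each immunoproteasome catalytic subunit (filled circles) and the constitutive subunit it replaces (open triangles) at 0, 4, 8 and 24 h, with the mean and SD of 3 mice in grey. Psmb8 lies above Psmb5 at 0 h, below it at 8 h in both genotypes and near it at 24 h, while Psmb10 stays far below Psmb7 after 0 h.

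Of the tissue-restricted members, Psmb11, the thymic cortex's own beta subunit, was a trace transcript. It had 0.23, 0.24 and 0.26 TPM in cKO mice and 0.08, 0.24 and 0.31 TPM in WT mice at 24 h, against 1.05, 1.22 and 1.34 TPM in cKO mice and 1.87, 1.27 and 2.47 TPM in WT mice at 0 h. The groups did not overlap, and the log2 fold change was -2.25 (SE 0.459, adjusted p = 3.89e-05) in cKO and -3.12 (SE 0.457, adjusted p = 1.5e-07) in WT. At such levels the values rest on few reads.

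In the 19S cap, the 6 ATPases that form the unfolding motor were all higher at 24 h than at 0 h, with medians of 1.29 in cKO and 1.31 in WT and a range from Psmc3 (0.90 and 0.94) to Psmc1 (1.40 and 1.55). The 11 non-ATPase subunits were also all higher, with medians of 1.33 in cKO and 1.43 in WT, but spread more widely, from Psmd4 (0.32 and 0.38) to Psmd3 (2.80 and 2.84). Psmd4 is a receptor for ubiquitin chains, and Psmd3 a scaffold subunit of the lid.

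Psmd11, a lid subunit whose rise is known to increase proteasome assembly in human embryonic stem cells, had the largest change of the cap genes at 4 h in cKO and the largest but Psmd3 in WT. It had 265, 277 and 265 TPM in cKO mice and 286, 270 and 261 TPM in WT mice at 4 h, against 115, 111 and 96.7 TPM in cKO mice and 101, 92.9 and 96.2 TPM in WT mice at 0 h. The log2 fold change at 4 h was 1.40 (SE 0.0978, adjusted p = 6.27e-15) in cKO and 1.59 (SE 0.099, adjusted p = 2.47e-16) in WT. It then fell from 8 h to 24 h (log2 fold change -0.31, adjusted p = 0.00609 in cKO and -0.44, adjusted p = 0.000168 in WT), and the cKO call was lost without mouse 2 (-0.20, adjusted p = 0.144) and with no filter on low counts (-0.20, adjusted p = 0.101). Psmd1, the largest base subunit, was likewise early, at 1.08 in cKO and 1.16 in WT at 4 h over 0 h. Psmd7, which pairs with the deubiquitinase Psmd14 in the lid, climbed at each step in mean TPM. From 8 h to 24 h its call in cKO was lost without mouse 1 (0.27, adjusted p = 0.0925). In WT that step was not called, but it was under 10 of 17 alternatives (0.28 to 0.35, adjusted p of 0.00159 to 0.0303). Psmd7 reached 405, 411 and 406 TPM in cKO mice and 429, 438 and 422 TPM in WT mice at 24 h, against 96.2, 114 and 92.9 TPM in cKO mice and 90.4, 89.5 and 99.5 TPM in WT mice at 0 h. Its log2 fold change was 2.09 (SE 0.108, adjusted p = 3.44e-19) in cKO and 2.25 (SE 0.109, adjusted p = 5.22e-20) in WT.

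Psmd3 had the largest change of any member and the poorest replication. At 24 h it was even, with 249.8, 235 and 224 TPM in cKO mice and 243, 247 and 245 TPM in WT mice, against 28.2, 34.5 and 45.5 TPM in cKO mice and 38.6, 39.0 and 28.2 TPM in WT mice at 0 h. At 4 h it had 93.7, 71.2 and 31.0 TPM in cKO mice and 79.1, 130.5 and 149 TPM in WT mice. One cKO library, that of mouse 3, was still within the 0 h range at 4 h. The SD of its log2(TPM + 1) within groups was 0.420, against a median of 0.0843 over the members. The call at 4 h over 0 h in cKO (0.97, SE 0.339, adjusted p = 0.0221) was lost without mouse 1 (0.49, adjusted p = 0.357), without mouse 2 (0.86, adjusted p = 0.153), with mouse as a block (0.93, adjusted p = 0.0522) and in a fit of only the groups compared (0.94, adjusted p = 0.171). The calls at 24 h over 0 h held under every alternative tried, with adjusted p values of at most 0.000142 in cKO and 0.000113 in WT.

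The assembly chaperones of the cap differed from its subunits. Psmd5 and Psmd9, which hold ATPases before the base closes, were higher at 24 h than at 0 h by log2 fold changes of 0.73 and 0.75 in cKO cells, against 0.69 and 0.61 in WT cells, below every cap subunit but Psmd4 and, in cKO, Psmd8 (0.68). Psmd10, the oncoprotein gankyrin, was not called (0.10, adjusted p = 0.426 in cKO and 0.22, adjusted p = 0.0836 in WT). In WT it was called higher under 6 of 17 alternatives, DESeq2 and its size factors among them (0.24 to 0.38, adjusted p of 0.0105 to 0.046). None of the 3 was higher at 4 h. Psmd10 was called lower at 4 h over 0 h in cKO (-0.28), a call lost under 7 of 17 alternatives (adjusted p of 0.0517 to 0.13). In WT Psmd10 was called lower under 6 of 17 alternatives (-0.40 to -0.29). Psmd5 was called lower under 4 of 17 in WT (-0.38 to -0.23) and 2 of 17 in cKO (-0.27 and -0.23).

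All 4 core assembly chaperones were higher at 24 h than at 0 h, with medians of 1.84 in cKO and 1.86 in WT, and most of their rise came after 4 h. Psmg1 and Psmg2 form a pair that guides the alpha ring, as do Psmg3 and Psmg4. Psmg3 had 141, 155 and 150.3 TPM in cKO mice and 146, 153 and 159 TPM in WT mice at 24 h, against 36.0, 34.6 and 34.7 TPM in cKO mice and 40.9, 26.0 and 43.8 TPM in WT mice at 0 h. Its log2 fold change was 2.15 (SE 0.151, adjusted p = 1.98e-15) in cKO and 2.09 (SE 0.152, adjusted p = 5.91e-15) in WT. Psmg2 rose by 1.97 and 1.89, Psmg1 by 1.71 and 1.83, and Psmg4 by 0.95 and 1.04. Psmg1 was not called at 4 h over 0 h (-0.28, adjusted p = 0.0987 in cKO and 0.09, adjusted p = 0.616 in WT), although in cKO it was called lower without Rn45s (-0.32, adjusted p = 0.0423) and with limma on log2(TPM + 1) (-0.35, adjusted p = 0.0132), and then rose by 1.33 (SE 0.141, adjusted p = 2.09e-09) in cKO and 1.19 (SE 0.138, adjusted p = 1.21e-08) in WT by 8 h. Psmg1, Psmg2 and Psmg3 rose again from 8 h to 24 h in both genotypes, a step in which Psmb5 and Psmb6 were not called.

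The activators each had a pattern of their own. Psme1 and Psme2 encode the alpha and beta chains of the interferon-inducible 11S cap, and were among the most abundant members. Psme2 rose until 8 h and then fell. It had 857, 1091 and 775 TPM in cKO mice and 777, 801 and 801 TPM in WT mice at 0 h, 1508, 1586 and 1540 TPM in cKO mice and 1585, 1602 and 1542 TPM in WT mice at 8 h, and 962, 974 and 943 TPM in cKO mice and 965, 954 and 908 TPM in WT mice at 24 h. The log2 fold change at 4 h over 0 h was 0.70 (SE 0.0948, adjusted p = 7.07e-08) in cKO and 0.81 (SE 0.0953, adjusted p = 3.47e-09) in WT, and that at 24 h over 8 h was -0.73 (adjusted p = 4.15e-08) in cKO and -0.83 (adjusted p = 2.39e-09) in WT. At 24 h over 0 h Psme2 was called higher in WT, also under every alternative (adjusted p of at most 0.0427). In cKO it was not called, except without mouse 2 (0.32, adjusted p = 0.0058) and with no filter on low counts (0.22, adjusted p = 0.029). A near-identical copy of Psme2 exists in the mouse genome and has no entry of its own in the files, so its reads may be included.

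Psme1 was not called at 4 h over 0 h (0.12 in cKO and 0.09 in WT) and fell between 8 h and 24 h (-0.56, adjusted p = 1.38e-06 in cKO and -0.59, adjusted p = 5.66e-07 in WT). It had 755, 748 and 769.5 TPM in cKO mice and 743, 743 and 731 TPM in WT mice at 24 h, against 963, 1173 and 899 TPM in cKO mice and 949, 946 and 942 TPM in WT mice at 0 h. At 24 h over 0 h the log2 fold change was -0.34 (SE 0.0879, adjusted p = 0.000663) in cKO and -0.32 (SE 0.088, adjusted p = 0.00142) in WT. Without mouse 2, whose resting library held the most Psme1, Psme2, Psmb8, Psmb9 and Psmb10 of all 6, the cKO value was -0.19 (adjusted p = 0.0798). With no filter on low counts the WT value was -0.16 (adjusted p = 0.129). Under that setting the median over the genes tested moved by up to -0.44, over a larger set of 22168 genes.

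Psme3, a nuclear activator of the core that interferon does not induce, had risen by 4 h. It had 48.5, 48.0 and 48.3 TPM in cKO mice and 49.7, 55.5 and 51.7 TPM in WT mice at 4 h, against 17.5, 18.8 and 15.5 TPM in cKO mice and 17.8, 17.5 and 17.2 TPM in WT mice at 0 h. At 24 h it had 70.1, 66.8 and 61.3 TPM in cKO mice and 72.2, 66.9 and 75.8 TPM in WT mice. Its log2 fold change at 4 h over 0 h was 1.56 (SE 0.107, adjusted p = 3.36e-15) in cKO and 1.68 (SE 0.108, adjusted p = 6.1e-16) in WT, and at 24 h over 0 h 2.01 (SE 0.105, adjusted p = 4.73e-19) and 2.08 (SE 0.107, adjusted p = 2.27e-19). Psme4, a single-chain activator, was near the floor of the members, with 8.12, 7.94 and 8.16 TPM in cKO mice and 8.47, 7.84 and 8.53 TPM in WT mice at 24 h. Its log2 fold change at 24 h over 0 h was 0.26 (adjusted p = 0.119) in cKO and 0.52 (adjusted p = 0.00301) in WT. The WT call was lost without mouse 4 (0.36, adjusted p = 0.0809), and the cKO value was called without mouse 2 (0.41, adjusted p = 0.0456) and with no filter on low counts (0.34, adjusted p = 0.0366). Psmf1, an inhibitor of the core in vitro, was lower at 4 h than at 0 h (-0.37 in both genotypes, adjusted p = 0.00298 in cKO and 0.00272 in WT) and rose from 4 h to 8 h by 0.50 and 0.53.

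**Figure D4:**
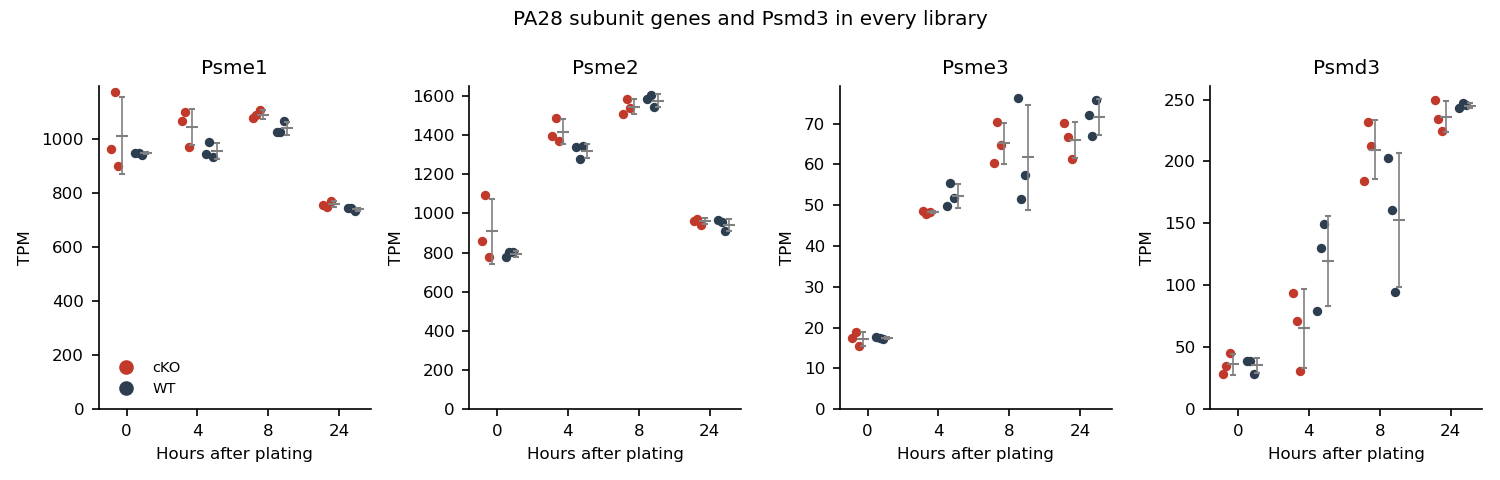
TPM in every library of Psme1, Psme2, Psme3 and Psmd3 at 0, 4, 8 and 24 h, with the mean and SD of 3 mice, cKO left of WT. Psme2 peaks at 8 h, Psme3 is already high at 4 h, and the libraries of Psmd3 scatter at 4 h but coincide at 24 h.

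Genes of the constitutive proteasome are known to be raised together by the transcription factor Nfe2l1 through antioxidant response elements in their promoters. The 250 bases before the transcription start were therefore scanned, on both strands, for the core of that element, TGACNNNGC, in the RefSeq promoters of GRCm38.p6, which covered 40 of the 48 members. It was present in 5 members, or 12.5%, against 10.1% of 27025 genes with a promoter. These 5 windows are shown because they hold the element in the members that were higher at 24 h in both genotypes. The element or its reverse complement, GCNNNGTCA, is in capitals, and each window is read 5′ to 3′ on the strand of its gene.
Psmb5, chr14:54618023-54618072 (minus strand): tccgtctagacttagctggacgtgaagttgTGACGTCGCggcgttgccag
Psmb6, chr11:70525318-70525356 (plus strand): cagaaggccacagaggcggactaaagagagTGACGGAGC
Psmc6, chr14:45329574-45329635 (plus strand): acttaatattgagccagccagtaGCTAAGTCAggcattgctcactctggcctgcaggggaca
Psmd12, chr11:107479278-107479319 (plus strand): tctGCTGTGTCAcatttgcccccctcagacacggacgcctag
Psmd9, chr5:123228129-123228189 (plus strand): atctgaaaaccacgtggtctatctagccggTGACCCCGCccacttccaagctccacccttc
In Psmb5, Psmb6 and Psmd9 the element lies within the 77 bases next to the start, and in Psmc6 and Psmd12 at the far end of the scanned window. The windows of Psmb8, Psmb9 and Psmb10 held none. A CCAAT box (CCAAT) was present in 35.0% of the members and 34.5% of all promoters and an E-box (CACGTG) in 10.0% and 6.05%. A match is a description of these letters and not a measurement of binding.

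Most of the proteasome's cofactors were also higher at 24 h. Of 17 such genes in the files, 14 were higher and 2 lower at 24 h than at 0 h in cKO, and 14 were higher and 1 lower in WT, where 37.3% and 39% of all tested genes were higher and lower in cKO, and 36.9% and 40.1% in WT. The median log2 fold change of the list was 1.01 in cKO and 1.07 in WT. Txnl1, a thioredoxin bound to the cap, rose by 1.99 in both genotypes. Uchl5 and Usp14, the deubiquitinases that ride on the cap, rose by 2.04 and 1.67 in cKO and by 2.19 and 1.62 in WT. Pomp, the maturation protein of the core, rose by 0.98 (SE 0.097) in cKO and 1.06 (SE 0.098) in WT. The exception in both was Zfand2a, a stress-inducible cap-binding protein, at -0.61 in cKO and -1.04 in WT (adjusted p = 0.0094 and 3.3e-05).

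The counts of the genes that regulate proteasome transcription lay above the background at 4 h and near it at 24 h. At 4 h over 0 h 7 of 12 were higher and 1 lower in cKO, and 8 higher and 1 lower in WT (background 29.6% higher and 27.6% lower in cKO, 30% and 29.1% in WT). By 24 h 5 were higher and 3 lower than at 0 h in cKO, and 4 higher and 3 lower in WT, shares near those of all tested genes (37.3% and 39% in cKO, 36.9% and 40.1% in WT). Nfe2l1 rose by 1.15 in cKO and 1.18 in WT at 4 h and was at 1.17 and 0.96 at 24 h. Its protease Ddi2, which releases the active factor, rose by 2.35 in cKO and 2.25 in WT at 24 h. Ngly1, the enzyme that removes its sugars, was lower, with -1.19 and -1.26, as was the related factor Nfe2l2, with -1.39 and -1.38.

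Genes of the axis from interferon gamma to the immunoproteasome were mostly higher at 4 h. At 4 h over 0 h 9 of its 12 genes were higher and 0 lower in cKO, and 9 higher and 2 lower in WT, against the same background. By 24 h 4 were higher and 6 lower than at 0 h in each genotype, which is near the shares of all tested genes. Ifng itself, the cytokine, was at most 0.15 TPM in any cKO library and 0.69 TPM in any WT library at 0 h and had 461 ± 54.7 TPM in cKO mice and 243 ± 36.0 TPM in WT mice at 4 h (SD, n = 3 each). At 24 h it had 274 ± 57.7 TPM in cKO mice and 128 ± 21.1 TPM in WT mice. Irf1, a factor known to induce Psmb8, Psmb9 and Psmb10 in other cells, rose by 1.20 in cKO and 1.46 in WT at 4 h, when Psmb8 and Psmb10 were lower than at 0 h. The kinase Jak1 was lower at 24 h (-2.26 and -2.32), as was the receptor chain Ifngr1 (-2.84 and -2.76).

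In the class I presentation list 3 of 13 genes were higher and 7 lower at 24 h than at 0 h in cKO, and 3 higher and 6 lower in WT, where 37.3% and 39% of all tested genes were in cKO and 36.9% and 40.1% in WT. Tapbp, which loads peptides, was lower, at -1.92 in cKO and -2.05 in WT. The heavy chains H2-D1 and H2-K1 were lower, at -1.31 and -1.26 in cKO and -1.32 each in WT. Tap1, the neighbour of Psmb9, had 0.87 in cKO and 0.99 in WT at 4 h over 0 h. Psmb9 was not called at that step, except lower in WT under 6 of 17 alternatives. Among 14 genes of ubiquitin and the p97 unfoldase, 9 were higher and 4 lower in cKO and 9 higher and 5 lower in WT at 24 h over 0 h, more than the background for the higher genes and near it for the lower ones. Vcp, the unfoldase, was higher, at 0.99 in cKO and 1.00 in WT. For comparison, the 8 subunits of the CCT chaperonin, another multi-subunit machine, were all higher at 24 h, with medians of 1.62 in cKO and 1.77 in WT, above the 1.31 and 1.36 of the 31 core and cap subunits. A rise of the whole complex was therefore not limited to the proteasome in these libraries.

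The genotypes were compared at each time. No member was called between cKO and WT at 0, 4, 8 or 24 h in edgeR's quasi-likelihood test, where 0.445%, 0.82%, 0.183% and 0.105% of all tested genes were called. By direction, 0.314%, 0.436%, 0.148% and 0.0959% of all tested genes were higher and 0.131%, 0.384%, 0.0349% and 0.00872% lower. DESeq2, limma voom and limma on log2(TPM + 1) also called 0 members. At an unadjusted p under 0.05 there were 1, 2, 6 and 0 members of 47, against 7.37%, 11.8%, 9.93% and 3.69% of all tested genes. The 6 at 8 h included Psmb8, with 476, 348 and 396 TPM in cKO mice and 336, 304 and 321 TPM in WT mice. Its groups did not overlap, as those of 10.5% of all tested genes did not, and its log2 fold change was 0.29 (95% interval 0.08 to 0.49, adjusted p = 0.306). The other 5, Psma3, Psmc2, Psmd1, Psmd5 and Psmg3, were lower in cKO, with values of -0.18 to -0.31. At 24 h Psmb8 differed by 0.14 (95% interval -0.06 to 0.35).

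**Figure D5:**
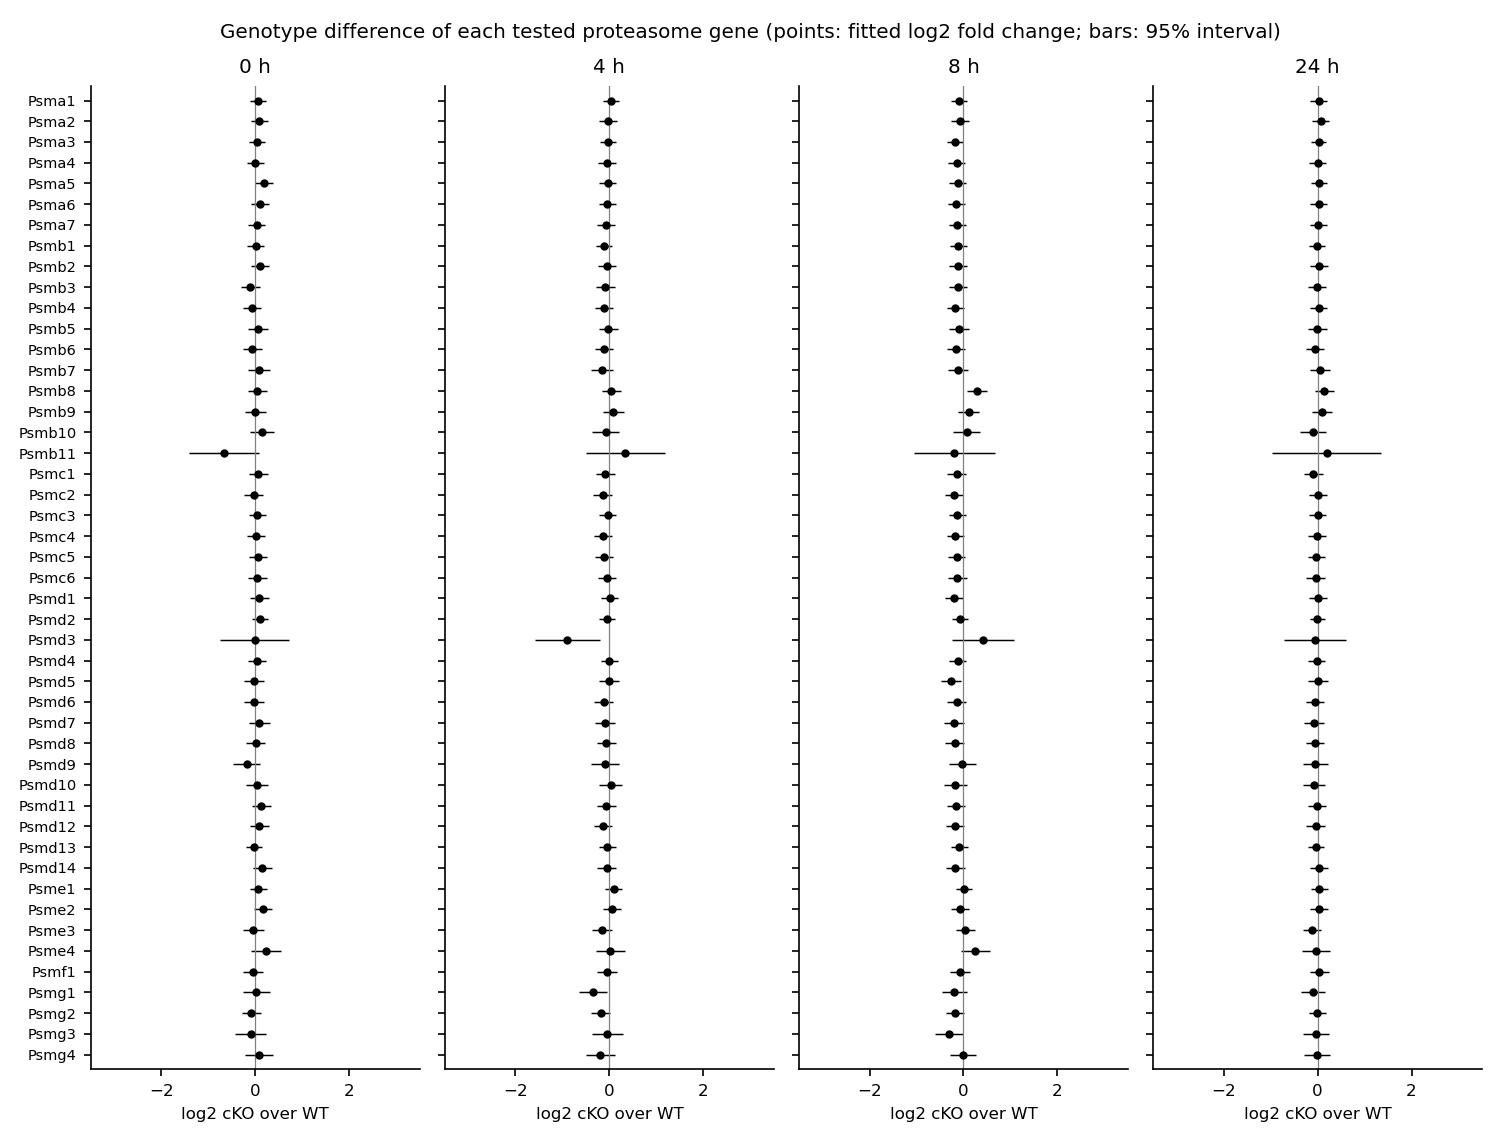
Log2 fold change of cKO over WT for each tested member at 0, 4, 8 and 24 h, with 95% intervals (edgeR, 3 mice a group). Most points lie close to 0 at every time, that of Psmd3 at 4 h is at -0.89, the widest intervals belong to Psmb11 and Psmd3, and no member was called.

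The change over time did not differ detectably by genotype either. For the steps 4 h over 0 h, 8 h over 4 h, 24 h over 8 h and 24 h over 0 h, the difference of the change (cKO minus WT) was called for 0 members, where 0.00872%, 0.061%, 0.00872% and 0.0174% of all tested genes were. At an unadjusted p under 0.05 it was 0, 1, 0 and 0 members, against 7.11%, 8.51%, 4.45% and 4.29% of all tested genes, and DESeq2, limma voom and limma on log2(TPM + 1) called 0. The 1 member was Psmd3 at 8 h over 4 h, with a difference of 1.31 (95% interval 0.35 to 2.27, adjusted p = 0.34). At 24 h over 0 h the difference was 0.10 for Psmb8 (95% interval -0.19 to 0.38), 0.09 for Psmb9 (-0.22 to 0.40) and -0.25 for Psmb10 (-0.63 to 0.12).

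With the 4 libraries of each mouse summed, so that the animal was the sample, edgeR again called 0 members between cKO and WT, against 3.44% of 12640 tested genes (2.44% higher and 0.997% lower). The counts were summed without equalising depth over the times, so deeper libraries weigh more. At 0 h the libraries held 9535612, 9637768 and 6945429 expected counts in cKO mice and 6308908, 8429234 and 7282210 in WT mice. Psmb8 and Psmb10 were highest at 0 h, and most core and cap subunits lowest. The part of this weighting in the values below was not tested. At an unadjusted p under 0.05 there were 14 members, of which 2 were higher and 12 lower in cKO, against 15.7% of all tested genes. The log2 fold change was negative for 41 of the 47 members, and its 95% interval lay within ±0.5 for 46. Its median was -0.07, against 0.002 over all tested genes. Neither the split at an unadjusted p nor the share of negative values was counted over all tested genes. The smallest adjusted p was 0.0797, for Psmg1 (-0.17, 95% interval -0.28 to -0.06). Psmb8 and Psmb10 were the 2 that were higher, each at 0.16 with intervals of 0.02 to 0.30 and 0.00 to 0.31 (adjusted p = 0.238 and 0.301). Without mouse 3 both were called, Psmb8 at 0.25 (adjusted p = 0.000762) and Psmb10 at 0.25 (adjusted p = 0.0039). Leaving out mouse 3 also removes the shallowest cKO library at 0 h, and the part of depth in these calls was not tested. With no filter on low counts Psmb8 was called at 0.17 (adjusted p = 0.0117). In the same sums Ifng was higher in cKO by 0.69 (adjusted p = 0.033), as were the class I genes Tap1 (0.20) and Tapbp (0.22). The part of Ifng in the values of Psmb8 and Psmb10 was not tested.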

How the data were processed

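Per the submitters' processing notes, reads were processed with STAR and RSEM on mm10, and DESeq2 is named. Their versions were not stated. Per the file headers, the deposited files give an RSEM expected count and a TPM for each gene and library. Expected counts were rounded and tested with edgeR 4.0.16 (R 4.3.3; filterByExpr, TMM, robust quasi-likelihood fit of 8 group means, limma 3.58.1) in 17 comparisons, with Benjamini-Hochberg adjustment over the 11470 genes tested and a threshold of 0.05. The pipeline was tested on simulated data. TPM was used for levels and for ratios. Libraries carry no molecular identifiers, so reads are not independent molecules. Replicates were separate mice. The same mouse was sampled at each time, per the labels. Deviations from group means correlated by a median of 0.018 for libraries of the same mouse (-0.085 to 0.163, 36 pairs) and -0.007 for other mice (72 pairs), and a fit with mouse as a block was an alternative, as were DESeq2 1.42.0, limma, other scalings and filters, and leaving out libraries or mice. Named were the catalytic subunits and their counterparts, the activators, and up to 5 members with the largest rise and fall in each comparison. Of other lists, up to 4 called genes with the smallest adjusted p were named. Psma1, Psma3, Psma4, Psmb1, Psmc1, Psmc2, Psmc3, Psmd4, Psmd5, Psmd8, Psmd9, Psmg1, Pomp, Zfand2a, Ifng, Irf1, Ngly1, Nfe2l2 and Tap1 were named after their values were seen, where the rule did not already cover them. Members and lists were chosen with earlier results of these data known. In the GENCODE annotation of GRCm38, 13 members share exon bases with another gene, 7 of them with a coding gene on the opposite strand. On their own strand, Psmd1 shares 301 with the coding gene Gm21972 and Psmg3 280 with the coding gene Gm26938.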

Additional observations from a re-analysis of the deposited data

How the results depend on the processing

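The number of members called kept within 1.5 times its value in the comparisons 4 h over 0 h, 8 h over 4 h and 24 h over 0 h under every alternative. In cKO, 34, 39 and 43 members were called for these, and leaving out 1 mouse gave 28 to 35, 36 to 40 and 42 to 44. In WT, 35, 42 and 45 were called, and leaving out 1 mouse gave 33 to 35, 37 to 42 and 43 to 46. The step from 8 h to 24 h was less stable. Its 23 calls in cKO became 15 to 24 with 1 mouse left out, and its 20 calls in WT became 12 to 25 with 1 mouse left out and 31 with limma on log2(TPM + 1), of which 22 were higher and 9 lower. Over 13471 member values recomputed in the 17 comparisons, 4608 calls were kept, 164 lost and 173 gained, 8526 values were called in neither fit, and 0 calls changed direction. With mouse as a block (pairing by animal), 33 of the 34 calls at 4 h over 0 h in cKO remained, without Psmd3, and 40 members were called at 8 h over 4 h in cKO, with Psmb10 added. At 24 h over 8 h in cKO 23 were called, with Psmd8 in place of Psmd9. The block changed no call in WT, and genotype differences in the change over time stayed at 0. The count of 0 members between cKO and WT in sums per mouse became 1 with no filter on low counts and 0 to 2 with 1 mouse left out. With 5 mice the paired exact test of a ratio cannot go below p = 0.0625, and the differences ranged from -1.48 to -1.37, -2.73 to -2.51 and -1.86 to -1.76 for Psmb8 to Psmb5 at 4, 8 and 24 h over 0 h, from -0.96 to -0.84, -2.26 to -2.09 and -1.59 to -1.50 for Psmb9 to Psmb6, and from -2.32 to -2.16, -3.48 to -3.24 and -3.55 to -3.39 for Psmb10 to Psmb7. The genotype difference of the Psmb10 to Psmb7 ratio, 0.03, was -0.047 without mouse 1, and leaving out 1 mouse gave up to 0.11. Scaling moved the median of all genes by up to 0.10 without Rn45s, 0.11 on TPM and 0.13 with a filter of 5 CPM in 3 libraries. The cause of these shifts was not tested. With groups of 3 mice, members that were not called may still differ between genotypes by amounts within the intervals given.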
